A study of Drosophila melanogaster with 2 samples.

Results

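The aminoacyl-tRNA synthetase genes described here are the 22 genes, of 17301 in the files, whose symbol starts with Aats- or consists of a capital, a pair of lower-case letters and RS, with or without -m. They were read in RNA sequencing of the poly(A) fraction of pooled Drosophila melanogaster embryos, aged 0 to 16 h and from flies kept at 25 °C, with 1 library for each of 2 genotypes. Both crosses used a y1 w* driver stock that carries P{en2.4-GAL4}e22c, whose GAL4 switches on transgenes early in development, and the transgene P{tGPH}4 over the balancer TM3, Ser1. The knockdown cross added, from a y1 v1 stock, P{TRiP.JF02125}attP2, an RNA interference construct against Lim3, and the control cross added P{y+t7.7=CaryP}attP2, also from a y1 v1 stock. Embryos of both groups are labelled as y1 w* or y1 w*/y1 v1, with the driver over the added transgene and with P{tGPH}4/+. Lim3 itself was higher in the library labelled knockdown (18.5 FPKM, against 5.81 FPKM in the control), which goes against the label, so that library is named by its label throughout. Whether the labels were exchanged, or fragments of the RNA interference construct were counted as Lim3, was not tested; an exchange would turn the sign of every difference below.

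Aminoacyl-tRNA synthetases join each amino acid to its transfer RNA, the step at which the genetic code is read into protein. Translation in the cytosol and translation inside mitochondria each need charged transfer RNAs. Animals supply the mitochondrial synthetases mostly from separate nuclear genes, with a few genes that make both enzymes. In animal cells several cytosolic synthetases are held together with the scaffold proteins AIMP1, AIMP2 and AIMP3 in a multisynthetase complex. Early fly embryos translate from maternal RNA and protein stores and later from their own genes.

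Levels are in FPKM (fragments scaled to transcript kilobases and to 1000000 mapped fragments), summed over a gene's annotated transcripts. Depth, read from the smallest values in the files, was about 33100000 fragments for the library labelled knockdown and 22400000 for the control. A difference is log2((knockdown + 1)/(control + 1)), and a ratio is knockdown FPKM over control FPKM. Each ratio has an exact binomial interval (95%) from the estimated fragments, which covers counting error only and is called the counting interval. With 1 pool of embryos per genotype there is no replicate check on any difference, and no test was made. Where 2 levels are given for a gene, form or transcript, the first is from the library labelled knockdown and the second from the control. Fewer cells that express a gene and less RNA per cell cannot be told apart in such pools.

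All 22 symbols matched a current gene name. The older names hide the compartment of 5 enzymes: Aats-leu, Aats-met, Aats-pro, Aats-ser and Aats-phe are now LeuRS-m, MetRS-m, ProRS-m, SerRS-m and PheRS-m, where -m marks the mitochondrial enzyme. With Aats-ala-m and Aats-tyr-m (AlaRS-m and TyrRS-m) this makes 7 mitochondrial synthetases and 15 that serve the cytosol or both compartments. The genes are spread over the arms 2L (3 genes), 2R (5), 3L (6), 3R (5) and X (3). Current names are used below, and coordinates are those of the Release 6 annotation.

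All 22 genes were read in both libraries, from 6.54 to 143 FPKM in the library labelled knockdown, while the control ran from 6.82 to 202 FPKM. LysRS (X, from 9606363 to 9608884), which charges lysine transfer RNAs, was the most abundant in both, at 143 and 202 FPKM. TyrRS, the cytosolic tyrosyl enzyme on 3L from 16417349 to 16419302, followed at 100.0 and 124 FPKM, and ThrRS, the threonyl enzyme on 2L from 12103751 to 12107170, at 95.2 and 111 FPKM. Per unit of transcript length these 3 genes stood above the other 19 in each library.

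AsnRS, the cytosolic asparaginyl enzyme, was at 74.6 and 84.9 FPKM. The bifunctional GluProRS, which charges both glutamate and proline transfer RNAs with a single protein, was at 65.8 and 65.9 FPKM. A middle group between 37.0 and 65.1 FPKM in both libraries held the enzymes IleRS, GlyRS, HisRS, AlaRS, GlnRS, TrpRS and ArgRS. ValRS (22.1 and 25.5 FPKM), AspRS (19.5 and 20.9 FPKM) and CysRS (13.3 and 14.1 FPKM) were the lowest cytosolic genes.

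Mitochondrial synthetases were lower as a group, with a median of 15.4 and 18.6 FPKM, against 49.7 and 62.4 FPKM for the 15 others. PheRS-m, the mitochondrial phenylalanyl enzyme on 2R from 13968308 to 13969902, did not share this low level, at 68.0 and 78.9 FPKM. The other 6 lay between 6.54 and 20.7 FPKM, from AlaRS-m at 6.54 and 6.82 FPKM up to SerRS-m at 19.5 and 20.7 FPKM.

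The order of the genes was nearly the same in the libraries (Spearman's rho 0.99 over 22 genes, which share their libraries). With the genes ranked in each library on its own, 8 of the 21 neighbouring pairs had counting intervals that overlap and 13 did not. The number was 8 in both rankings but the pairs were partly others: AspRS and SerRS-m overlapped in both, PheRS-m and GluProRS in the library labelled knockdown, and GluProRS and IleRS in the control.

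**Figure D1:**
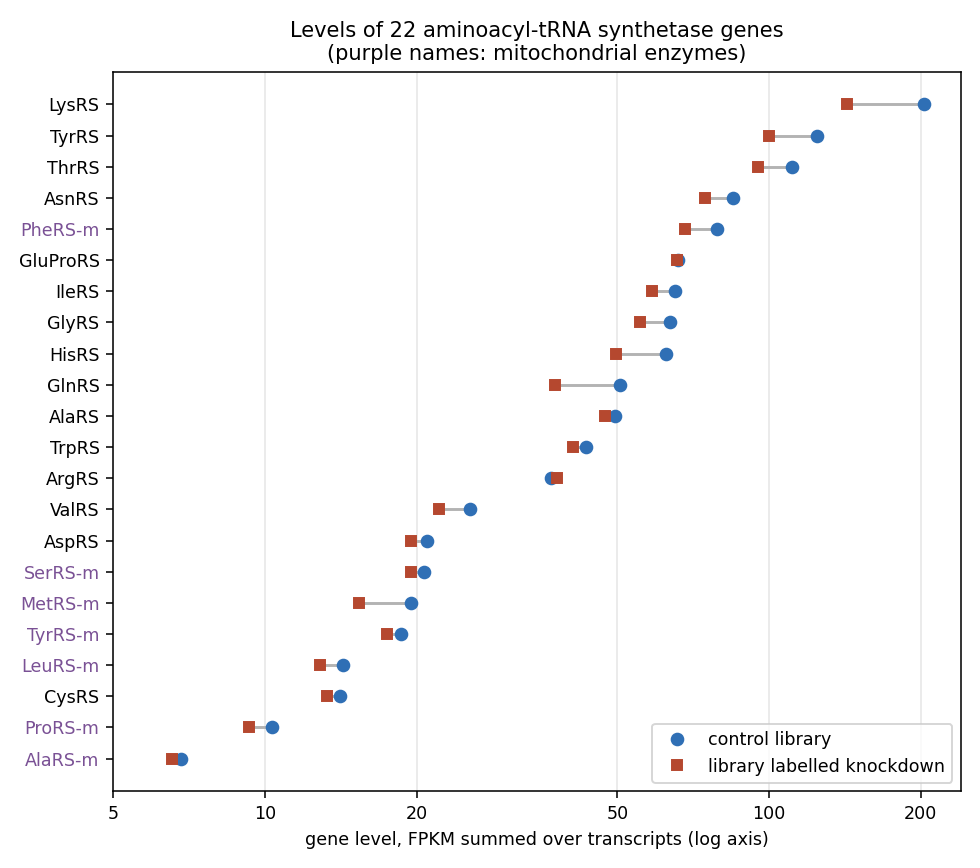
Gene level in FPKM (log axis) of the 22 synthetase genes in the control library (circles) and the library labelled knockdown (squares), 1 library each, ordered by the control; purple names are mitochondrial enzymes. LysRS is highest at 143 and 202 FPKM, and PheRS-m at 68.0 and 78.9 FPKM is the only mitochondrial gene above 20.7 FPKM.

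The gap between compartments was followed amino acid by amino acid, using also genes from a set of 14 whose symbols in the files do not meet the name rule. The set holds synthetase genes and Slimp, a synthetase-like gene that is in none of the pairs. Of 16 pairs of a cytosolic and a mitochondrial gene, for 15 amino acids, the cytosolic gene was higher in both libraries in 12, by 1.46- to 11.5-fold. Met had the smallest of these gaps in the control library, with MetRS at 28.4 FPKM and MetRS-m at 19.4 FPKM. Ile had the largest there, with IleRS at 65.1 FPKM and IleRS-m at 5.66 FPKM. The Glu pair rests on both GluProRS transcripts, of which the more abundant encodes only the prolyl side of the protein; the full-length transcript alone, at 9.09 and 10.3 FPKM, was 1.58- and 1.41-fold above GluRS-m.

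The 4 other pairs belonged to Asp, Cys and Phe. AspRS-m was at 31.0 and 33.1 FPKM, above AspRS at 19.5 and 20.9 FPKM. CysRS-m, at 15.3 and 16.3 FPKM, was above CysRS at 13.3 and 14.1 FPKM. PheRS-m exceeded both subunits of the cytosolic phenylalanyl enzyme, alpha-PheRS at 57.1 and 65.0 FPKM and beta-PheRS at 35.2 and 36.1 FPKM. The same pairs were on the same side in both libraries.

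**Figure D2:**
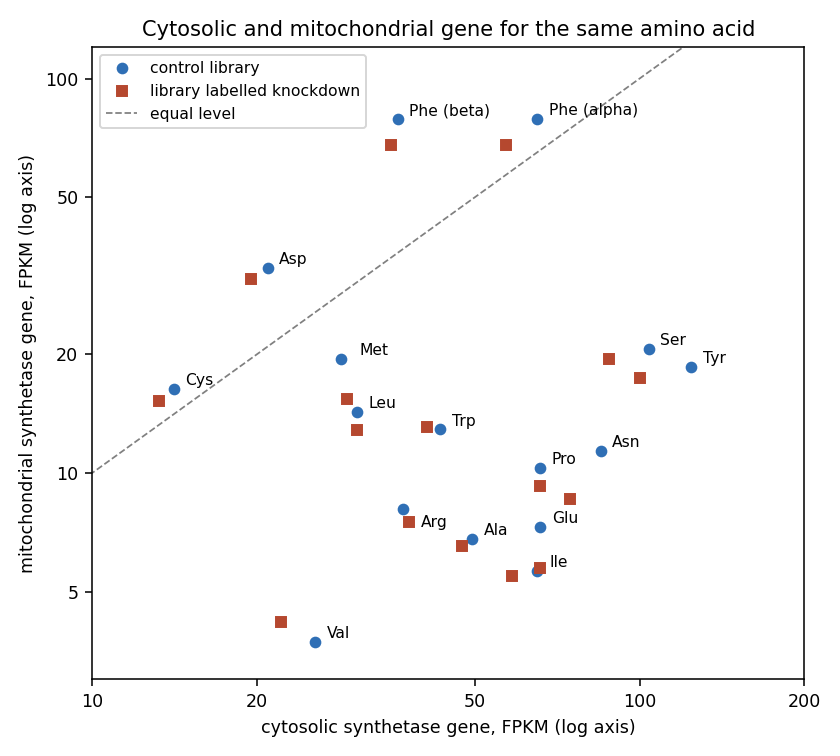
FPKM of the cytosolic gene (x) and of the mitochondrial gene (y) for the same amino acid, both on log axes; GluProRS stands for Glu and for Pro, and Phe has 2 cytosolic subunits. Points above the dashed line of equal level are Asp, Cys and Phe in both libraries, and 12 of 16 pairs lie below it.

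Some of these levels are uncertain because genes overlap and it is not known whether counting used strand. AspRS shares 1448 exonic bases, 63.9% of its own, with the antisense RNA CR45141 on the opposite strand, which was at 92.4 and 98.2 FPKM. SerRS-m shares 356 exonic bases with Nagk on the opposite strand (75.8 and 76.9 FPKM), GluProRS shares 905 with the antisense RNA CR46092 on the opposite strand, whose level was not analysed here, and HisRS shares 255 with Bx on its own strand (5.96 and 5.57 FPKM). Of the 22 genes, 9 share some exonic bases with another gene and these 4 share 100 or more. Outside the name rule, CysRS-m shares 302 bases, 14.3% of its own, with CG13016 on the opposite strand (16.3 and 19.9 FPKM), beside a level only 1.15- and 1.16-fold above CysRS, and ArgRS-m shares 325 with mRpS9 on the opposite strand (112 and 146 FPKM). The part of such sharing in the values was not tested.

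None of the 22 synthetase genes differed by 2-fold between the libraries (an absolute log2 difference of 1). That size was rare among all genes, so a count of 0 among 22 is not a result about the synthetases. It was reached by 2.39% of all 10576 genes tested, that is, those that reached 1 FPKM in either library; 1.37% were that much lower in the library labelled knockdown and 1.02% that much higher. Among the 5471 genes whose longest transcript, like those of the 22, has 1517 to 5405 nt, 0.292% differed by 2-fold. On the deposited scale 21 of the 22 were lower in the library labelled knockdown, with a median log2 difference of -0.15, but after rescaling to an equal FPKM sum 17 were higher, with 78.5% of all genes, and the median was 0.12. Among all genes tested, 56.5% lay below 0 and 43.5% above 0 on the deposited scale, with a median of -0.045, and among the 8531 genes that reached 5 FPKM in either library 61.0% lay below 0, with a median of -0.072. Rescaling to an equal sum moved the median of all genes by 0.26 on the log2 scale, so the distance to it is given: synthetase median minus all-gene median was -0.10 as deposited and -0.090 after rescaling.

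At the level of the members the distance to other genes was small and uneven. For the 9 synthetase genes with a mean of 50 to 300 FPKM the median log2 difference was -0.21, and for all 2086 genes of that level it was -0.14. For the 7 at 20 to 50 FPKM it was -0.083, against -0.099 for 2632 genes. For the 6 at 5 to 20 FPKM it was -0.11, against 0.0077 for 3270 genes. Across the 22 genes, which share their libraries, the difference went down with level (Spearman's rho -0.43), as it did across all 8380 genes with a mean of 5 FPKM or more (-0.26). With transcript length rho was 0.17 for the 22 genes and 0.26 for all.

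**Figure D3:**
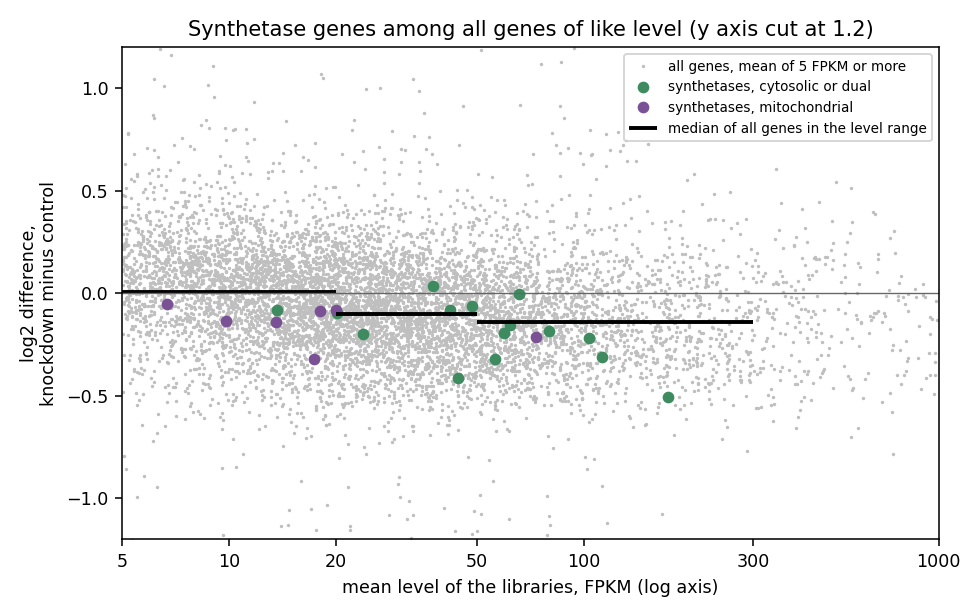
Log2 difference (knockdown minus control, pseudocount 1, deposited scale) against mean level in FPKM (log axis) for 8380 genes (grey) and the 22 synthetase genes (green, purple); black bars are medians of all genes in 3 level ranges. The bars step from 0.0077 to -0.099 to -0.14, the synthetase genes lie among the grey points at every level, and equal-sum rescaling would raise all points by up to 0.28.

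LysRS, a member of the multisynthetase complex, had the lowest log2 difference, -0.50, with a ratio of 0.70 (0.68 to 0.72) on about 9308 and 8971 fragments. GlnRS, the glutaminyl enzyme of the same complex (3R, from 25263267 to 25265721), came next at 37.7 and 50.5 FPKM (-0.41; ratio 0.75, 0.71 to 0.78). These were the only members at least 20% lower on the pseudocount scale, 2 of 22, a size that 15.9% of all genes reached, 16.9% of genes that reached 5 FPKM and 9.29% of genes in the members' range of transcript length. With a pseudocount of 0.1 HisRS and MetRS-m, at plain ratios of 0.797 and 0.790, were also at least 20% lower, which made 4 of 22, and after equal-sum rescaling the count was 0. None was at least 25% higher, as were 8.65% of all genes. After equal-sum rescaling both stayed below 0, at -0.22 and -0.14.

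GlnRS shares 26 exonic bases with CG11858 on the opposite strand, which was at 107 and 162 FPKM, and the part of this in its value was not tested.

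The other complex members were closer to 0 on the deposited scale. GluProRS was level (-0.0029; ratio 1.00, 0.96 to 1.03) and ArgRS, at 38.0 and 37.0 FPKM, was the only one of the 22 above 0 on that scale (0.037; ratio 1.03, 0.97 to 1.09). IleRS, the isoleucyl enzyme, was at 58.4 and 65.1 FPKM (-0.15) and AspRS was at -0.098 with an interval of the ratio that includes 1. The 6 complex members thus ran from -0.50 to 0.037, with a median of -0.13. LeuRS (30.5 and 30.5 FPKM) and MetRS (29.3 and 28.4 FPKM), complex enzymes outside the name rule, were also level on that scale, at 0.0022 and 0.040. After equal-sum rescaling GluProRS, ArgRS, LeuRS and MetRS were at 0.27, 0.31, 0.27 and 0.31, so they were level only as deposited. IleRS and AspRS were then at 0.12 and 0.17, and the median of all genes was 0.21.

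The 9 cytosolic or dual enzymes outside the complex were all lower on the deposited scale, with a median of -0.19, and 7 of them were above 0 after rescaling. The shares of all genes tested were 56.5% below 0 as deposited and 78.5% above 0 after rescaling. The rescaled median of the 9 was 0.085, against 0.21 for all genes. HisRS was at 49.7 and 62.4 FPKM (-0.32), TyrRS at -0.31 and ThrRS at -0.22. ValRS (-0.20), GlyRS (-0.19) and AsnRS (-0.18) lay near the group's median. For these 6 the counting interval of the ratio lay below 1, and HisRS and TyrRS stayed below 0 after rescaling, at -0.045 and -0.033. AlaRS (47.3 and 49.4 FPKM; -0.061), TrpRS (40.9 and 43.2 FPKM; -0.079) and CysRS (-0.083) had intervals that include 1.

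The 7 mitochondrial enzymes had a median of -0.14, close to the -0.18 of the 15 others. All 7 lay below 0 as deposited and 6 above 0 after rescaling, against 56.5% and 78.5% of all genes tested. Their rescaled median was 0.12, against 0.21 for all genes. MetRS-m was the lowest on the summed values, at 15.4 and 19.4 FPKM (-0.32; ratio 0.79, 0.72 to 0.87). PheRS-m, at -0.21, and LeuRS-m, at 12.9 and 14.3 FPKM (-0.14), were the others whose interval lay below 1. SerRS-m (-0.083), TyrRS-m (17.4 and 18.6 FPKM; -0.089), ProRS-m (-0.14) and AlaRS-m (-0.053) had intervals that include 1.

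On the deposited scale the counting interval lay below 1 for 12 of all 22 genes, above 1 for 0 and included 1 for 10. Equal-sum rescaling would raise every log2 ratio by 0.28. All interval counts given here therefore hold for the deposited scale only, and they were not made again after rescaling. Of all genes tested, 37.5% had an interval below 1 and 23.2% above 1. Intervals narrow with the number of fragments, so genes of like level are the closer comparison. At a mean of 5 to 20 FPKM, 2 of 6 members and 874 of 3270 genes had an interval below 1. At 20 to 50 FPKM it was 2 of 7 and 1305 of 2632, and at 50 to 300 FPKM 8 of 9 and 1284 of 2086. The structural classes of synthetases differed little on the deposited scale: the 10 genes of class I had a median of -0.15 and the 11 of class II -0.18, while GluProRS holds both folds; after rescaling these medians were 0.12 and 0.093.

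**Figure D4:**
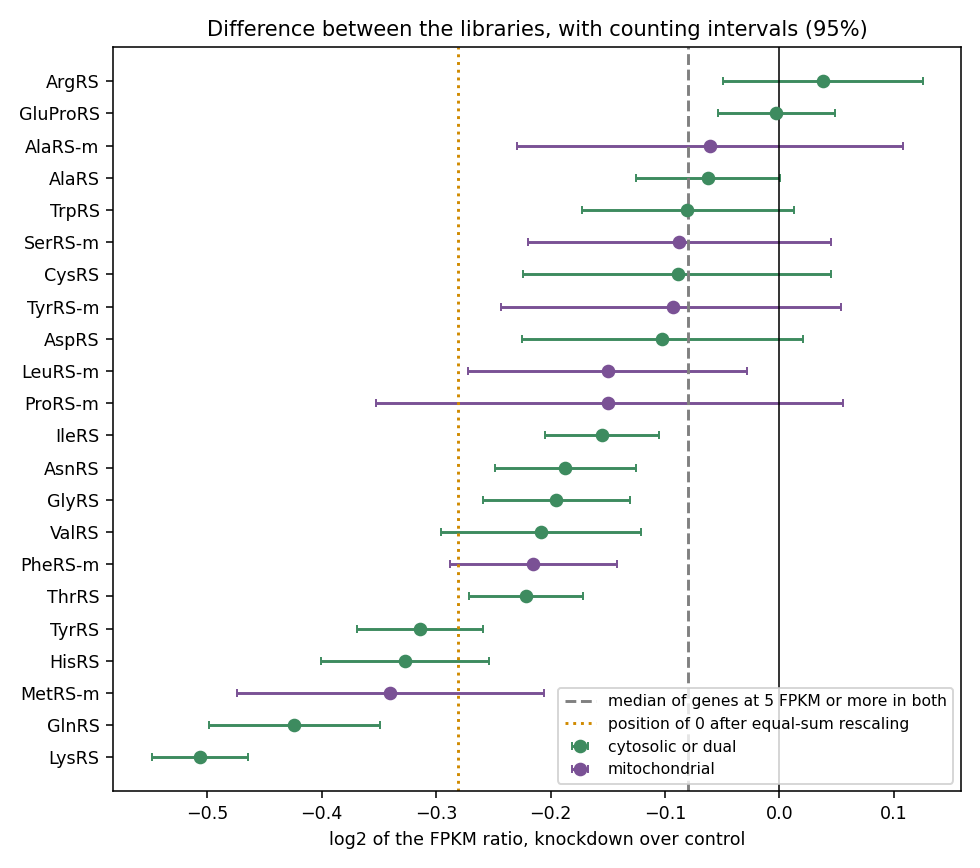
Log2 of the plain FPKM ratio (knockdown over control) of each synthetase gene with its 95% counting interval, coloured by compartment; 1 library per genotype, so the bars hold no replicate error. LysRS and GlnRS lie farthest left, ArgRS and GluProRS at 0, and 5 of 22 genes lie left of the dotted line that marks 0 after equal-sum rescaling.

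The 22 genes have 44 annotated transcripts in the files, and 13 genes have more than 1. In 10 of these 13 a single transcript held at least 80% of the gene's FPKM in both libraries. Transcript values are the authors' software's division of shared fragments, an error that the counting intervals do not hold. Of the 35 transcripts of these 13 genes, 30 reached 1 FPKM, and 3 of the 30 were at least 2-fold lower on the log2 scale with 1 added. Among all 13279 such transcripts 4.33% were that much lower and 8.21% differed in either direction.

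The 3 were minor transcripts. FBtr0087734 of ValRS was at 0.0018 and 2.48 FPKM, FBtr0080333 of ThrRS was listed at 0 and at 1.13 FPKM, and FBtr0071367 of LysRS was at 0.713 and 2.57 FPKM. FBtr0303560 of LysRS, which encodes a protein of the same length as FBtr0071367, was at 3.64 and 2.61 FPKM.

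GlyRS, HisRS, LysRS and ThrRS have no separate mitochondrial gene under the current symbols, and each has transcripts that encode a longer protein with the same coding end. In humans GlyRS and LysRS are each known to supply both compartments from a single gene; where the longer fly proteins go was not measured here. The longer forms have 765 residues against 679 in GlyRS, 554 or 564 against 522 in HisRS, 607 against 574 in LysRS and 747 against 690 in ThrRS. They were a small part of each gene, from 1.30% to 7.72% of its FPKM, at 0.827 to 5.18 FPKM. That range is below the level of every mitochondrial synthetase among the 22. Outside the name rule, ValRS-m lay within it, at 4.18 and 3.74 FPKM.

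The longer GlyRS form was at 2.83 and 0.827 FPKM, a ratio of 3.42 (2.50 to 4.83) on about 234 and 46 fragments, while the shorter was at 52.6 and 62.7 FPKM (ratio 0.84, 0.80 to 0.88). Its share of the gene was 5.10% and 1.30%. Of its 2 transcripts FBtr0075633, at 1.11 and 0.247 FPKM, has 1 exon and no intron, so that RNA of this gene that was not spliced cannot be told apart from it, and FBtr0333934, at 1.72 and 0.580 FPKM, has 2 exons.

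The longer ThrRS form was at 4.10 and 3.37 FPKM (ratio 1.22, 1.03 to 1.45), with shares of 4.31% and 3.03%. The longer LysRS form was at 4.35 and 5.18 FPKM (ratio 0.84, 0.71 to 0.99), with shares of 3.05% and 2.56%, and the longer HisRS form at 3.84 and 4.26 FPKM (ratio 0.90, 0.75 to 1.08), with shares of 7.72% and 6.83%. The share was higher in the library labelled knockdown in 4 of 4 genes, a count made after the values were seen and with no test. No like count over minor transcripts of all genes is given here, so it has no background. In GluProRS, which is not among these 4, the share of the transcript for the longer protein went the other way, at 13.8% and 15.6%. The 2 longer LysRS transcripts differed in opposite directions, with ratios of 0.28 and 1.40.

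GluProRS (3R, from 23952136 to 23958391) was read mainly from its shorter transcript. FBtr0084511, of 5405 nt, encodes the whole protein of 1714 residues and was at 9.09 and 10.3 FPKM (ratio 0.88, 0.82 to 0.95). FBtr0084512, of 3151 nt, encodes 996 residues with the same coding end, the side of the protein that holds the prolyl enzyme, and was at 56.7 and 55.6 FPKM (ratio 1.02, 0.98 to 1.06). The shorter transcript was 86.2% and 84.4% of the gene's FPKM, so the level of the full bifunctional enzyme's RNA was near that of ProRS-m (9.29 and 10.3 FPKM) and below that of every other cytosolic enzyme among the 22.

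IleRS and MetRS-m each had transcripts that encode proteins of equal length and that stood in different proportion in the libraries. In IleRS FBtr0078498 was at 21.2 and 33.2 FPKM (ratio 0.64, 0.61 to 0.67), and FBtr0078500 at 37.2 and 31.9 FPKM (ratio 1.17, 1.11 to 1.22); both encode 1229 residues. With the most abundant transcript alone, the log2 difference of IleRS was 0.22 in place of -0.15, and that of MetRS-m was -0.061 in place of -0.32. In MetRS-m FBtr0082895 was at 3.38 and 6.91 FPKM (ratio 0.49, 0.41 to 0.59) and FBtr0337021 at 12.0 and 12.5 FPKM (ratio 0.96, 0.86 to 1.07), so most of the gene's difference lay in the minor transcript. FBtr0337021 is 1974 nt in the files and 2337 nt in the annotation. ProRS-m also had FBtr0333447, with a coding sequence for 123 in place of 458 residues, at 1.51 and 0.468 FPKM.

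**Figure D5:**
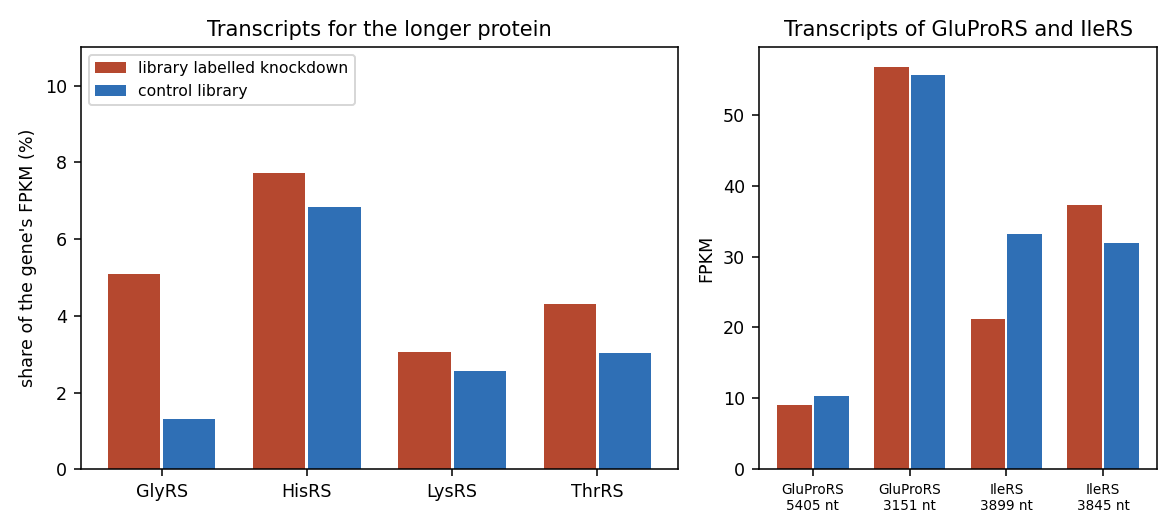
Left, share of the gene's FPKM (%) held by transcripts that encode the longer protein; right, FPKM of the 2 main transcripts of GluProRS and of IleRS by transcript length, 1 library per bar and no error bars. The left shares are 5.10% and 1.30% for GlyRS, and on the right the 3151 nt GluProRS transcript stands at 56.7 and 55.6 FPKM while the IleRS transcripts change order.

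The 14 genes outside the name rule, with the synthetase-like Slimp counted among them, had a median log2 difference of -0.092, and none differed by 2-fold. Of these 14 genes 10 lay below 0 as deposited and 2 after rescaling, against 56.5% and 21.5% of all genes tested. The lowest were AsnRS-m, at 8.59 and 11.4 FPKM (-0.37), and GluRS-m, at 5.74 and 7.29 FPKM (-0.30). SerRS, the cytosolic seryl enzyme and the most abundant of them, was at 88.1 and 104 FPKM (-0.23), alpha-PheRS was at -0.18 and Slimp, a mitochondrial seryl-synthetase-like protein of insects, at 12.4 and 14.4 FPKM (-0.20). AspRS-m (-0.092), CysRS-m (-0.092), ArgRS-m (-0.097; 7.50 and 8.09 FPKM), beta-PheRS (-0.038) and IleRS-m (-0.038; 5.48 and 5.66 FPKM) were closer to 0. TrpRS-m, at 13.1 and 12.9 FPKM (0.023), and ValRS-m, at 4.18 and 3.74 FPKM (0.13), were higher. All 36 genes together, Slimp included, had a median of -0.12 as deposited and 0.14 after rescaling.

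Of the scaffold genes of the complex, all 3 were lower on the deposited scale and 2 were above 0 after rescaling. AIMP2 was at 95.5 and 121 FPKM (-0.34), AIMP3 at 45.9 and 55.5 FPKM (-0.27) and AIMP1 at 50.5 and 56.5 FPKM (-0.16). Their median was -0.27 as deposited and 0.0046 after rescaling. Of all genes tested, 56.5% lay below 0 as deposited and 78.5% above 0 after rescaling. The scaffold genes were not compared with genes of like level or length.

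Of 18 genes of transfer RNA processing and modification 17 lay below 0 as deposited and 5 after rescaling, with a median of -0.17, and none differed by 2-fold. rswl, a subunit of the mitochondrial RNase P that cuts transfer RNAs from precursors, was at 31.3 and 44.0 FPKM (-0.48), and the RNA methyltransferase gene Nsun2 at 33.0 and 41.7 FPKM (-0.33). The next list held 8 elongation factor genes, for proteins that carry charged transfer RNA to ribosomes and for their partners. Of these 8 genes 7 lay below 0 as deposited and 4 after rescaling, with a median of -0.30. Lowest were the elongation factor subunits eEF1beta, at 1735 and 2637 FPKM (-0.60), eEF1delta, at 409 and 533 FPKM (-0.38), and eEF1gamma, at 1512 and 1950 FPKM (-0.37). Of all genes tested, 56.5% lay below 0 as deposited and 21.5% after rescaling. Across the 8380 genes with a mean of 5 FPKM or more, the difference went down with level and up with transcript length (Spearman's rho -0.26 and 0.26). The longest transcripts of eEF1beta and eEF1delta are short, at 960 and 928 nt. Neither list was compared with genes of like level or length.

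Shortage of charged transfer RNA is sensed through the amino acid and integrated stress response. Its genes were divided in sign on the deposited scale, about as all genes were. Of 11 measured genes 6 lay below 0 as deposited and 1 after rescaling, against 56.5% and 21.5% of all genes tested. The median of the 11 was -0.0027. AsnS, which makes asparagine, was at 60.4 and 86.5 FPKM (-0.51), beside -0.50 for LysRS. The transcription factor gene Xrp1 was at 73.4 and 55.8 FPKM (0.39) and Thor, a translation inhibitor that binds eIF4E, at 205 and 174 FPKM (0.24). None of the 11 differed by 2-fold.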

How the data were processed

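Transcript abundance was deposited by the authors as FPKM for each transcript in each library, per the file headers; TopHat and Cuffdiff were used, per the submitters' processing notes. How these tools were set, whether strand was used, and which annotation was taken is not given in the sources used here, and the coordinates in the files are those of Release 5. Libraries were made with a directional kit and cut to 250 to 400 bp, per the labels' protocols.

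From these values FPKM was summed per gene over 33887 transcripts, of which 365 without a gene identifier were left out. Genes at 1 FPKM in at least 1 library were compared, with a pseudocount of 1. Depth was estimated where FPKM times length piles up at 1 fragment, among genes with 1 transcript of 1000 to 3000 nt (115 and 134 genes in the pile). Counting intervals rest on it. Positions, exons and protein lengths come from the Ensembl release 115 annotation (Release 6) by identifier, and names from RefSeq. Exact 0 values can be failed estimates. Python 3.11.15, pandas 2.3.3 and scipy 1.17.1 were used; the calculations were tested on simulated data.

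The members, the 4 lists of other genes and the thresholds were chosen with earlier results of these data known. All members were named, and of the lists the scaffold genes in full and otherwise the 3 genes with the largest absolute log2 difference. One gene that this rule names is not reported here. Of 42 list symbols 2 had no match. Alternatives were other pseudocounts, filters and scalings, subtraction of a length trend, single transcripts and a wider gene set.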

Additional observations from a re-analysis of the deposited data

How the results depend on the processing

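The median log2 difference of the synthetase genes (-0.15) and the number below 0 (21 of 22) depended on the scale. After rescaling to an equal FPKM sum the median was 0.12, 5 genes were below 0 and 0 were at least 20% lower. On that scale these genes with a counting interval below 1 changed sign: PheRS-m (0.065), ValRS (0.070), ThrRS (0.059), LeuRS-m (0.12), IleRS (0.12), GlyRS (0.085) and AsnRS (0.093). An equal median ratio gave a median of -0.070 and 18 genes below 0, with GluProRS (0.076), AlaRS (0.017) and AlaRS-m (0.017) then above 0, and moved 11 of 22 genes beyond their counting intervals. With a pseudocount of 0.1, 4 genes in place of 2 were at least 20% lower. With the most abundant transcript only, IleRS (0.22) and GluProRS (0.027) changed sign, which left 19 below 0, ValRS moved to -0.090 and MetRS-m to -0.061, and ProRS-m (-0.30) was then the lowest mitochondrial gene. The distance to the median of all genes ran from -0.15 to -0.053 under the 9 alternatives. The rescalings move the members and all genes together, so they could hardly change its sign. Comparison with genes of like level was not among the alternatives, and there the sign was not constant. At 20 to 50 FPKM the synthetase median was -0.083, against -0.099 for all genes of that level. Pseudocounts of 0.1 and 5 and filters at 0 and 5 FPKM moved no gene beyond its counting interval, and length correction moved 3 of 22. No gene passed 2-fold under any alternative run, and the mitochondrial median stayed above that of the other members. Among the 14 genes outside the name rule the order was the reverse, at -0.092 for mitochondrial genes, with Slimp, and -0.038 for cytosolic genes. No paired analysis was possible because each genotype has 1 library, and for the same reason no replicate could be left out. Depth limits the minor transcripts most: the longer GlyRS form stood on about 46 fragments in the control.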
